A study of Mus musculus with 4 samples.

Results

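This account describes B cell barcodes that carry Myc RNA, taken from immune cells that had been sorted out of mouse mammary tumours. Members were selected on their own UMI counts (counted RNA molecules), Myc among them, so Myc and the B cell genes of the rule are given as description. A member has 500 or more UMIs, 250 or more genes and no more than 10% mitochondrial UMIs, and it holds 3 or more UMIs of Cd79a, Cd79b and Ms4a1 together, 3 or more Myc UMIs, at most 1 UMI of Cd3d, Cd3e and Cd3g together, and at most 2 UMIs of C1qa, C1qb and C1qc together. The rule gave 535 members of 15319 barcodes that passed the filters on UMIs, genes and mitochondrial RNA, 351 of them from Jagged1/PyMT and 184 from PyMT tumours. They are called Myc-high B barcodes here, and B barcodes without a Myc UMI are called Myc 0.

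Myc is a transcription factor that drives ribosome production, metabolism and cell growth, and resting B cells hold little of it. When an antigen receptor is engaged, B cells switch on Myc within a short time, together with a group of early response genes such as the Egr and Nr4a transcription factors, and with surface proteins such as CD69. Egr1 and Cd274, which encodes the checkpoint ligand PD-L1, were named with Myc and Cd79a as markers of these cells, so their values are given as description.

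The tumours came from FVB/NJ mice at 12 weeks of age, in the groups Jagged1/PyMT and PyMT. Both groups carry PyMT, the polyoma middle T antigen that drives mammary tumours, and the genotype label of the first adds Jagged1, which activates Notch receptors on neighbouring cells. The sources used here do not give the promoter or allele behind it, and no tumour-free mice are among the groups. The labels list 2 samples of each genotype, but both share 1 count matrix in which barcodes are not tied to samples, so each genotype is 1 library. No test over mice was possible: the 95% intervals are exact intervals for counting error, and they say nothing of the spread between mice.

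The Jagged1/PyMT library held 55506773 UMIs and 7875 called barcodes, and the PyMT library 36012036 UMIs and 7444 called barcodes. B barcodes made up 16.3% of called barcodes in Jagged1/PyMT and 18.6% in PyMT. Jag1, the gene that the first genotype names, stood at 16.8 CPM (UMIs of a gene scaled to a common total) over all called barcodes of Jagged1/PyMT and 1.96 CPM in PyMT, in the direction of the labels. The libraries shared 70 called barcode sequences, of which 1 was a B barcode and 0 were Myc-high.

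Myc-high barcodes were B cells by genes that the rule did not use. All 9 further B cell markers (Cd22, Pax5 and others) had UMIs, at a summed 7034 CPM in Jagged1/PyMT and 5867 CPM in PyMT Myc-high barcodes. Myc 0 barcodes matched to them in depth had 6796 CPM in Jagged1/PyMT and 5692 CPM in PyMT. Ighd was found in 66.1% of Jagged1/PyMT and 69.6% of PyMT Myc-high barcodes, and Ighm in 82.3% and 83.7% of them. The Cd274 part of the marker set held in Jagged1/PyMT but not in PyMT, as described further on. Of other lineages, the 9 T cell markers summed to 50.4 and 45.8 CPM in Jagged1/PyMT and PyMT Myc-high barcodes, with Cd4 at 0 in both. The 9 macrophage and monocyte markers summed to 248 and 125 CPM, and the 7 neutrophil markers to 190 and 2.61 CPM. The 9 dendritic cell markers ran the other way between the libraries, at 15.2 and 119 CPM, with Clec9a and Xcr1 at 0 in both. These sums rest on few barcodes, as 1 of 351 and 4 of 184 members had 2 or more such UMIs. Myc 0 partners had 48.9 and 269 CPM. Erythroid markers had 16.8 CPM in Jagged1/PyMT Myc-high barcodes, with 2 or more UMIs in 1 member, and 0 in PyMT. At least 2 UMIs of one of 5 other lineages were carried by 84 of 351 and 28 of 184 members. Among all Myc 0 B barcodes, not matched in depth, 99 of 535 in Jagged1/PyMT and 140 of 895 in PyMT carried them.

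Myc-high barcodes took up a larger part of the B barcodes in Jagged1/PyMT tumours than in PyMT tumours. The share was 27.4% of 1281 B barcodes in Jagged1/PyMT (95% exact binomial interval 24.97 to 29.93) and 13.3% of 1385 in PyMT (11.5 to 15.2), a ratio of 2.06 (approximate log-normal interval 1.76 to 2.42). With a higher Myc minimum of 5 UMIs the shares were 15.8% and 6.93%, and with 10 UMIs they were 4.22% and 2.24%. Barcodes with no Myc UMI at all made up 41.8% of B barcodes in Jagged1/PyMT and 64.6% in PyMT. As a share of all called barcodes, Myc-high B barcodes stood at 4.46% in Jagged1/PyMT and 2.47% in PyMT.

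**Figure D1:**
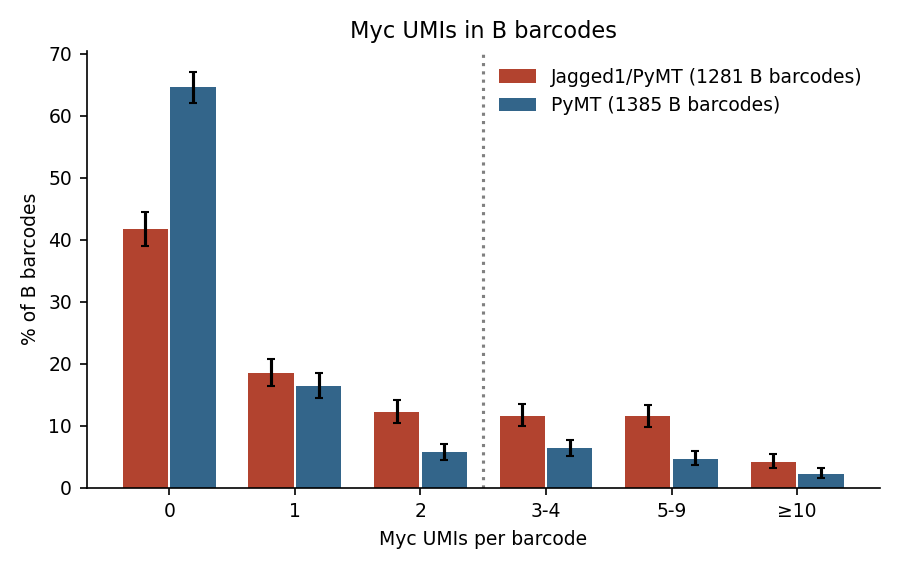
Share of B barcodes (percent) in each class of Myc UMIs, for Jagged1/PyMT (red, left) and PyMT (blue, right); lines are 95% exact binomial intervals and the dotted line marks the minimum of 3 Myc UMIs. Classes from 2 UMIs up hold a larger share of Jagged1/PyMT than of PyMT B barcodes, and Myc 0 barcodes a smaller one, 41.8% against 64.6%.

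Depth ran the other way from the share: B barcodes of Jagged1/PyMT were the shallower, with a median of 3186 UMIs against 3490 in PyMT. After each B barcode was thinned to 2000 UMIs, which left out 91 shallower barcodes in Jagged1/PyMT and 68 in PyMT, 3 or more Myc UMIs were found in 212 of 1190 (17.8%) and 94 of 1317 (7.14%). After thinning to 1000 UMIs, any Myc UMI was found in 36.3% and 19.0%. T cell barcodes, given for comparison, had 3 or more Myc UMIs in 1.25% of 2488 in Jagged1/PyMT and 0.393% of 4832 in PyMT. Their median depths were 3847.5 and 3937.5 UMIs. Myc had 642 and 302 CPM in B barcodes of Jagged1/PyMT and PyMT, against 38.5 and 18.0 CPM in T barcodes and 67.6 and 101 CPM in barcodes under 100 UMIs. Myc was higher in Jagged1/PyMT in T barcodes too, by 1.10 on the log2 scale (0.89 to 1.30). Genes that tissue digestion can induce also differed between the libraries: Jun in Myc 0 barcodes had 191 CPM in Jagged1/PyMT and 77.6 CPM in PyMT. In a split chosen after seeing the data, the share ratio was 2.34 among B barcodes with no Fos or Jun UMI and 1.82 among those with one. A missing UMI of these genes does not mark a cell that digestion left unchanged, so the split cannot tell the part of digestion. That part was not tested.

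Within the members, Myc counts ran from 3 to 26 UMIs with a median of 5 in Jagged1/PyMT, and from 3 to 32 with a median of 5 in PyMT. The top 10% began at 12 UMIs in Jagged1/PyMT and 11 in PyMT. The cut lies on a continuous slope: 80 Jagged1/PyMT and 53 PyMT barcodes had 3 Myc UMIs, just inside, and 157 and 79 had 2, just outside. Egr1 had 619 CPM just inside and 762 CPM just outside in Jagged1/PyMT, and 432 and 494 CPM in PyMT. Nr4a1 had 2365 and 1744 CPM in Jagged1/PyMT and 2349 and 1936 CPM in PyMT, so the edge did not divide the early genes in one direction.

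Early response genes of antigen receptor stimulation were among the genes that stood higher in Myc-high than in Myc 0 B barcodes. Each Myc-high barcode was paired with the unused Myc 0 barcode nearest in total UMIs, within 20%, which gave 351 pairs in Jagged1/PyMT and 183 in PyMT. Among 3369 genes with 50 or more UMIs over both groups in each library, 15 were over 2-fold higher in Myc-high barcodes in both libraries, which is 0.445% of the genes measured, and 6 were over 2-fold lower in both, 0.178%. The 15 were Atf3, Nr4a3, Jun, Bhlhe40, Nfkbid, Egr2, Egr3, Gpr183, Bcl2a1b, Irf4, Cd180, Maff, Nr4a1, Tagap and Egr1, and 8 of them belong to the list of antigen receptor-induced early genes. In a single library, 34 of 4683 genes were over 2-fold higher in Jagged1/PyMT (0.726%) and 37 lower (0.79%), and 47 of 3390 were higher in PyMT (1.39%) and 33 lower (0.973%). Medians over all genes measured were 0.01 and -0.01 on the log2 scale.

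Egr1, a zinc finger transcription factor switched on by receptor signalling, joined a high level to a large ratio. It stood at 1376 CPM in Myc-high and 141 CPM in Myc 0 barcodes of Jagged1/PyMT, which is a log2 ratio of 3.29 (3.06 to 3.52). In PyMT it stood at 1011 CPM in Myc-high and 77.6 CPM in Myc 0 barcodes, which is a log2 ratio of 3.70 (3.32 to 4.12). Egr1 was found in 49.6% of Jagged1/PyMT and 58.7% of PyMT Myc-high barcodes, against 13.1% and 10.9% of their Myc 0 partners. T barcodes of the 2 libraries, where Egr1 can also be induced, had it in 12.1% and 12.1%. One Myc 0 barcode of Jagged1/PyMT held 28.9% of that group's Egr1 UMIs, and without the barcode with the most Egr1 UMIs in each group the log2 ratio was 3.74.

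Its relatives followed. Egr2, which restrains as well as accompanies receptor responses in lymphocytes, had 135 CPM in Myc-high and 10.6 CPM in Myc 0 barcodes of Jagged1/PyMT, and 200 and 6.69 CPM in PyMT. Its log2 ratios were 3.68 (2.86 to 4.61) and 4.90 (3.65 to 6.55). Egr3 had log2 ratios of 2.31 (1.77 to 2.90) and 3.49 (2.64 to 4.48). One or more of the 3 Egr genes was found in 60.7% of Jagged1/PyMT and 69.6% of PyMT Myc-high barcodes, against 20.2% and 15.3% of Myc 0 partners. All 3 together were found in 41 of 351 and 34 of 184 Myc-high barcodes, against 2 of 351 and 0 of 183 Myc 0 barcodes, where the exact interval of the 0 reaches 1.996%.

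Nr4a1, which encodes the orphan nuclear receptor Nur77 and is widely used as a reporter of antigen receptor signals, was abundant in both groups. It had 2584 CPM in Myc-high and 1079 CPM in Myc 0 barcodes of Jagged1/PyMT, with a log2 ratio of 1.26 (1.17 to 1.35). In PyMT it had 2959 CPM in Myc-high and 745 CPM in Myc 0 barcodes, with a log2 ratio of 1.99 (1.86 to 2.13). Its relatives Nr4a2 and Nr4a3 had log2 ratios of 0.97 and 1.56 in Jagged1/PyMT and 1.98 and 1.97 in PyMT. Nr4a1 was found in 84.6% of Jagged1/PyMT and 80.9% of PyMT Myc 0 barcodes, so its presence alone did not separate the groups.

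Irf4, a transcription factor whose level grows with antigen receptor signal strength, had 206 CPM in Myc-high and 71.6 CPM in Myc 0 barcodes of Jagged1/PyMT, and 196 and 36.1 CPM in PyMT. Nfkbid, which encodes an atypical inhibitor of NF-kappa B, had 528 and 156 CPM in Jagged1/PyMT and 689 and 118 CPM in PyMT. The log2 ratios of Nfkbid were 1.76 and 2.55. Gpr183, the receptor that guides activated B cells to the outer follicle, had log2 ratios of 1.75 (1.45 to 2.06) and 2.42 (1.98 to 2.89). Bcl2a1b, a survival gene of the Bcl2 family with near-identical copies among which reads may be split, had log2 ratios of 1.01 and 1.93. Tagap, a GTPase-activating protein of lymphocytes, had log2 ratios of 2.47 (1.89 to 3.09) and 3.79 (2.82 to 4.96). The activation marker Cd69 had 956 CPM in Myc-high and 541 CPM in Myc 0 barcodes of Jagged1/PyMT, and 830 and 284 CPM in PyMT. Cd83, another surface marker of activation, had log2 ratios of 0.72 (0.63 to 0.82) and 1.20 (1.06 to 1.35), while those of the costimulatory ligand Cd86 were -0.21 (-0.54 to 0.11) and 0.12 (-0.23 to 0.46).

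**Figure D2:**
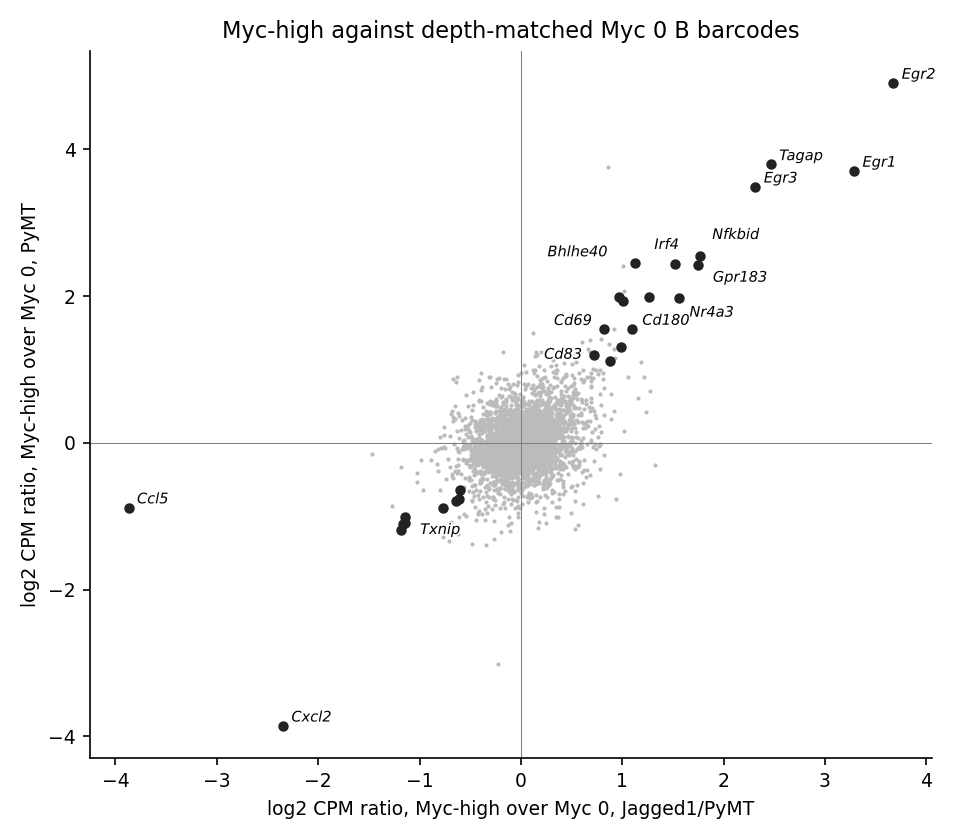
Log2 ratio of CPM in Myc-high over depth-matched Myc 0 B barcodes, in Jagged1/PyMT (x axis) and PyMT (y axis), for 3369 genes measured in both (grey) and the genes named by rule with Cd69 and Cd83 (black, some without a label). The Egr genes lie at the upper right, with Egr2 at 3.68 and 4.90, and most genes lie near 0 on both axes; Ccl5 and Cxcl2 at the lower left rest on few barcodes.

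As these genes stood higher together, 3 of their promoters are shown, each from 250 bases before to 50 bases after the start of transcription, chosen for a motif long tied to fast induction. The sequences are RefSeq's on build GRCm38.p6, read 5′ to 3′ on the strand of the gene, and 12 of 15 genes were found in that table. These 15 are the higher genes ranked first by their interval bounds: 12 of those over 2-fold higher in both libraries (without Atf3, Jun and Maff), with Nr4a2, Rasgef1b and Fos. Capitals mark the serum response element known as the CArG box in the Egr2 promoter at chr10:67537316-67537615 (plus strand) and in the Gpr183 promoter at chr14:121965144-121965443 (minus strand). In the Nr4a1 promoter at chr15:101266596-101266895 (plus strand) they mark 4 copies of the cyclic AMP response half-site TGACG, read on either strand.
Egr2: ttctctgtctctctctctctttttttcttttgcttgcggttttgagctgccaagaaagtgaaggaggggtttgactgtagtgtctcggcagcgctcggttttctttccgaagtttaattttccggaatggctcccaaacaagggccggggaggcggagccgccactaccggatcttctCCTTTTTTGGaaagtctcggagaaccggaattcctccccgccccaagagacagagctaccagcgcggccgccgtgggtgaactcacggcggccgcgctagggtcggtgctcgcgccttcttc
Gpr183: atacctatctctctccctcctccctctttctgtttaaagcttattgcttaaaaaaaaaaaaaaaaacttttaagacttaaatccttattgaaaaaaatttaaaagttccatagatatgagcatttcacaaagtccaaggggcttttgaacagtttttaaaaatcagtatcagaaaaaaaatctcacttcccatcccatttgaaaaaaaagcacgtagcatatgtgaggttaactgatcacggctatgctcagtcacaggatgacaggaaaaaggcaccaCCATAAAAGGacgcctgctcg
Nr4a1: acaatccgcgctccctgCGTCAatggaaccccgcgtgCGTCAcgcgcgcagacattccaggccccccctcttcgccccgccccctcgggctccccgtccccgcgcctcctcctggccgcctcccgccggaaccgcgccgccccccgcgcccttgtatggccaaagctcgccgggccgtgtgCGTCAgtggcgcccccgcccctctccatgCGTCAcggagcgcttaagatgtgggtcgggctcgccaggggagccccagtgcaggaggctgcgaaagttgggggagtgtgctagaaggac
Among the 12 genes, 2 had a CArG box and 8 a TGACG half-site in at least 1 listed promoter, and 1 had the E-box CACGTG that Myc can bind, all searched on both strands. Counted by promoter, the 3 motifs were in 5, 10 and 1 of the 19 listed promoters of these genes, 5 of which belong to Egr2. Of all 32851 promoters in the table, 1.63%, 20.8% and 7.15% held them. A match describes the letters in the window and does not show that a factor is bound there.

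The 6 genes over 2-fold lower in Myc-high barcodes in both libraries were Rapgef4, Txnip, S1pr1, Cxcl2, Lrrc8c and Myl4. Txnip and S1pr1 belong to the list of resting B cell and quiescence genes, which as a whole went both ways: of 20 genes, 8 were higher and 7 lower in both libraries, with medians of 0.02 in Jagged1/PyMT and -0.05 in PyMT. Txnip, a brake on glucose uptake that growth signals switch off, had 115 CPM in Myc-high and 257 CPM in Myc 0 barcodes of Jagged1/PyMT, and 117 and 250 CPM in PyMT. Its log2 ratios were -1.16 (-1.45 to -0.87) and -1.10 (-1.48 to -0.73). S1pr1, the receptor that lets lymphocytes leave tissue, had 41.6 and 92.0 CPM in Jagged1/PyMT and 86.2 and 183 CPM in PyMT, with log2 ratios of -1.14 (-1.65 to -0.66) and -1.09 (-1.54 to -0.65). Both genes thus differed by nearly the same factor in the 2 libraries.

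The phosphodiesterase gene Pde4b had log2 ratios of -0.77 and -0.88, the ceramide kinase gene Cerk -0.64 and -0.79, the interferon gamma receptor gene Ifngr2 -0.62 and -0.76, and Rapgef4, an exchange factor of Rap proteins, -1.19 and -1.18. Lrrc8c, a subunit of volume-regulated channels, had log2 ratios of -1.15 and -1.01, and Neurl3 of -0.60 and -0.64. The rule that named these 6 required an interval below 0 in both libraries, so their shared direction is no separate result. The chemokine genes Cxcl2 and Ccl5 also ranked among the lower genes, but their counts sat in few barcodes. Cxcl2 was found in 5.13% of Myc-high and 6.55% of Myc 0 barcodes of Jagged1/PyMT, and 1 barcode held 45.9% of the UMIs in the Myc 0 group. Without barcodes that held 5 or more UMIs of another lineage or Jchain, its log2 ratio in Jagged1/PyMT was 0.19, against -2.35 with them. For Ccl5 in PyMT, 1 Myc 0 barcode held all 692 UMIs.

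The level of these genes followed the number of Myc UMIs over all B barcodes, in classes of 0, 1, 2, 3 to 4, 5 to 9 and 10 or more. Egr1 stood at 177, 378, 762, 791, 1315 and 2874 CPM in Jagged1/PyMT, and at 119, 265, 494, 572, 992 and 2225 CPM in PyMT. Irf4 stood at 75.8, 125, 107, 161, 184 and 363 CPM in Jagged1/PyMT, and at 43.7, 84.8, 101, 144, 196 and 357 CPM in PyMT. In the top class both genes were highest, and Egr1 was found in 87.0% of 54 Jagged1/PyMT and 80.6% of 31 PyMT barcodes.

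Txnip ran the other way, at 274, 234, 152, 149, 102 and 68.9 CPM in Jagged1/PyMT and 284, 223, 188, 133, 110 and 80.9 CPM in PyMT. S1pr1 was at 101 CPM in the lowest and 13.8 CPM in the highest class of Jagged1/PyMT, and at 200 and 74.2 CPM in those of PyMT. Median depth differed little between the classes, from 3104 to 3664.5 UMIs in Jagged1/PyMT and from 3407 to 4288 UMIs in PyMT.

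**Figure D3:**
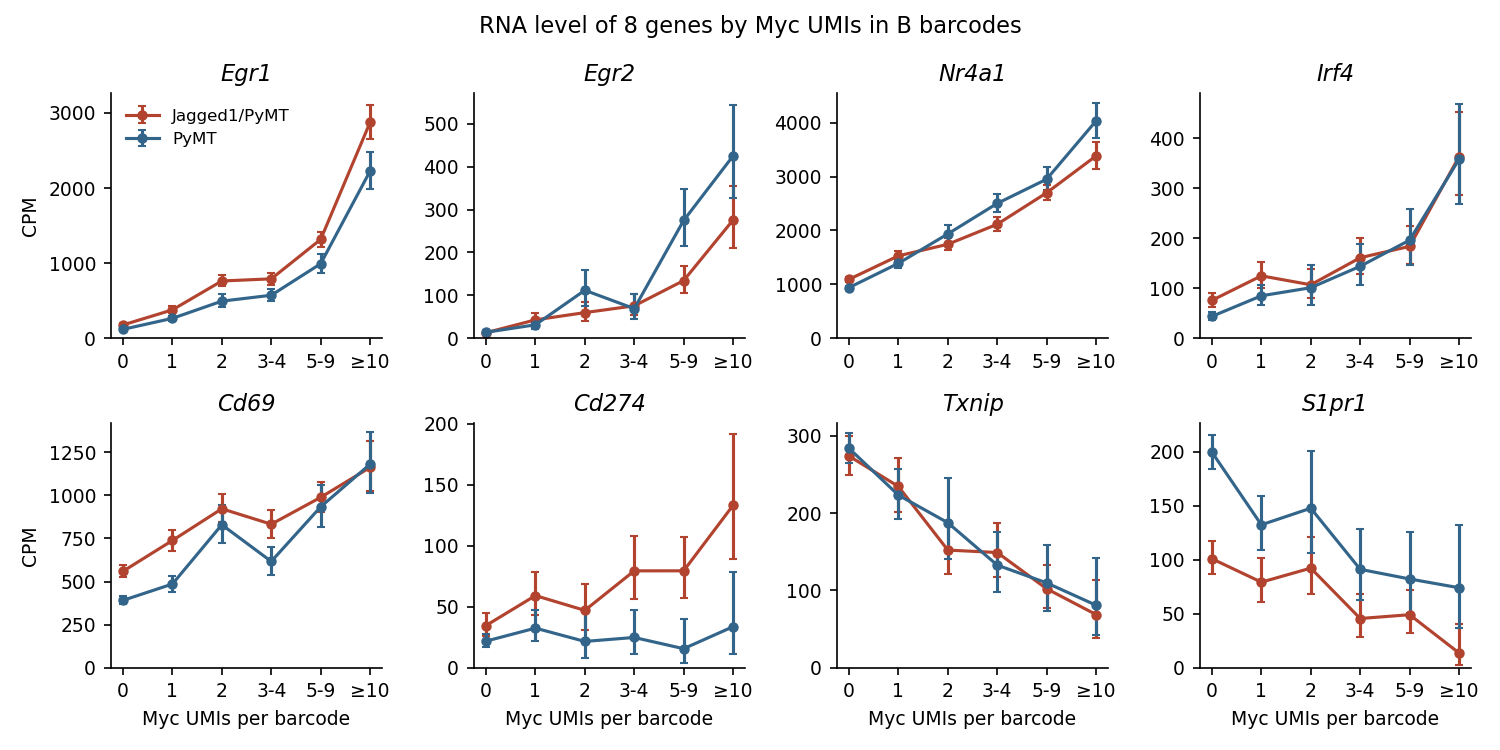
CPM of 8 genes (y axes, linear, each from 0) by class of Myc UMIs per barcode (x axes) in all B barcodes of Jagged1/PyMT (red) and PyMT (blue), with 95% exact Poisson intervals. Egr1, Egr2, Nr4a1 and Irf4 are highest in the top Myc class and Txnip and S1pr1 lowest in both libraries; Cd274 reaches 133 CPM in Jagged1/PyMT and 33.7 CPM in PyMT.

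The members were not uniform. In Jagged1/PyMT 174 had Egr1 and 177 had none, and in PyMT 108 had it and 76 did not. Egr1 counts per member ran up to 45 UMIs in Jagged1/PyMT with a median of 0, and the variance over members was 15.6 times the mean. For Myc, where the rule sets the lower end, it was 2.37 times the mean. In PyMT these values were 35 UMIs, a median of 1, 10.8 times and 3.12 times.

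Members with Egr1 carried more of the other early genes than members without it, at median depths of 3396.5 and 3301 UMIs in Jagged1/PyMT. Egr2 had 241 CPM with Egr1 and 30.3 CPM without in Jagged1/PyMT, and 306 and 68.7 CPM in PyMT. Nr4a1 had 3530 and 1644 CPM in Jagged1/PyMT and 3769 and 1809 CPM in PyMT. Cd69 had 1215 and 699 CPM in Jagged1/PyMT and 1056 and 519 CPM in PyMT. Txnip was lower with Egr1, at 77.1 and 153 CPM in Jagged1/PyMT and 74.2 and 172 CPM in PyMT. Myc itself had 2167 CPM with Egr1 and 1367 CPM without in Jagged1/PyMT. None of Egr1, Egr2, Egr3, Irf4 and Nfkbid was found in 48 of 351 Jagged1/PyMT and 19 of 184 PyMT members, 13.7% (10.3 to 17.7) and 10.3% (6.33 to 15.7).

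Read by gene group, the antigen receptor-induced early genes stood apart from the other lists in size. All lists were chosen with earlier results of these data known, so this rank is description. The early gene list has 24 genes, of which 21 were measured in Jagged1/PyMT and 18 in PyMT. Its median log2 ratio was 0.97 in Jagged1/PyMT and 1.76 in PyMT, and 17 of 21 and 15 of 18 genes were over 1.5-fold higher, where 4.66% and 6.34% of all genes were; 0 were over 1.5-fold lower in either library, where 3.67% and 5.16% of all genes were. In both libraries 13 of 18 genes were over 1.5-fold higher, against 1.72% of all genes measured, and 0 were lower in both, against 0.623%. Immediate early and dissociation stress genes, among them Fos, Jun and Atf3, had medians of 0.54 and 0.43, with 6 of 17 over 1.5-fold higher in both libraries. Jun had 434 CPM in Myc-high and 191 CPM in Myc 0 barcodes of Jagged1/PyMT, and 167 and 77.6 CPM in PyMT. The part of genes induced during tissue digestion in the Myc-high profile was not tested.

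Among the lists of growth genes that Myc can drive, some leaned higher by small amounts and others lay near 0. For nucleolus and ribosome assembly the median log2 ratio was 0.17 over 25 genes in Jagged1/PyMT and 0.32 over 19 in PyMT. Of the 19 measured in both libraries, 14 were higher in both and 0 lower in both, where 28.6% of all genes were higher and 29.9% lower in both, and 1 of 19 passed 1.5-fold in both. That gene was Mybbp1a, a nucleolar regulator, with log2 ratios of 0.89 (0.45 to 1.34) and 0.66 (0.15 to 1.18). Nucleolin, Ncl, had log2 ratios of 0.28 (0.12 to 0.45) and 0.22 (0.02 to 0.42). Chaperones had medians of 0.30 and 0.28, with 14 of 18 higher in both libraries. The endoplasmic reticulum chaperone Hspa5 had log2 ratios of 0.39 (0.24 to 0.55) and 0.85 (0.64 to 1.05). Nutrient transport had medians of 0.20 and 0.34 over 8 genes, and Slc3a2, a subunit of amino acid transporters, had 148 CPM in Myc-high and 96.9 CPM in Myc 0 barcodes of Jagged1/PyMT, and 166 and 82.9 CPM in PyMT. Polyamine, nucleotide and one-carbon synthesis had medians of 0.06 and 0.19, with 4 of 9 genes higher and 0 lower in both libraries. Glycolysis had medians of 0.00 and 0.08, with 2 of 9 higher and 2 lower in both, and translation factors 0.02 and 0.17, with 9 of 17 higher and 3 lower in both. Outside these lists, survival genes had medians of 0.25 and 0.31, and the NF-kappa B pathway 0.25 and 0.27.

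Other lists lay near 0. MHC class II presentation had medians of 0.03 and -0.06, B cell receptor signalling 0.03 and -0.05, and B cell identity factors 0.00 and -0.11. Of the 20 measured B cell receptor signalling genes, 0 passed 1.5-fold in either direction in either library. Of all genes measured, 4.66% were over 1.5-fold higher and 3.67% lower in Jagged1/PyMT, and 6.34% and 5.16% in PyMT. The count of 0 among 20 was thus not far from the share over all genes. Cell cycle genes were scarce: a UMI of Mki67 or Top2a was found in 1.71% (0.63 to 3.68) of Myc-high and 2.85% (1.37 to 5.18) of Myc 0 barcodes of Jagged1/PyMT, and in 2.17% (0.60 to 5.47) and 1.64% (0.34 to 4.72) in PyMT. Switched isotypes were rare too, with IgG heavy chain RNA in 5.13% of Myc-high and 4.56% of Myc 0 barcodes of Jagged1/PyMT, and in 2.17% and 6.01% in PyMT. Il10, an inhibitory cytokine, had 0 UMIs in Myc-high barcodes of either library, where the exact Poisson interval reaches 2.95 CPM in Jagged1/PyMT and 4.82 CPM in PyMT.

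**Figure D4:**
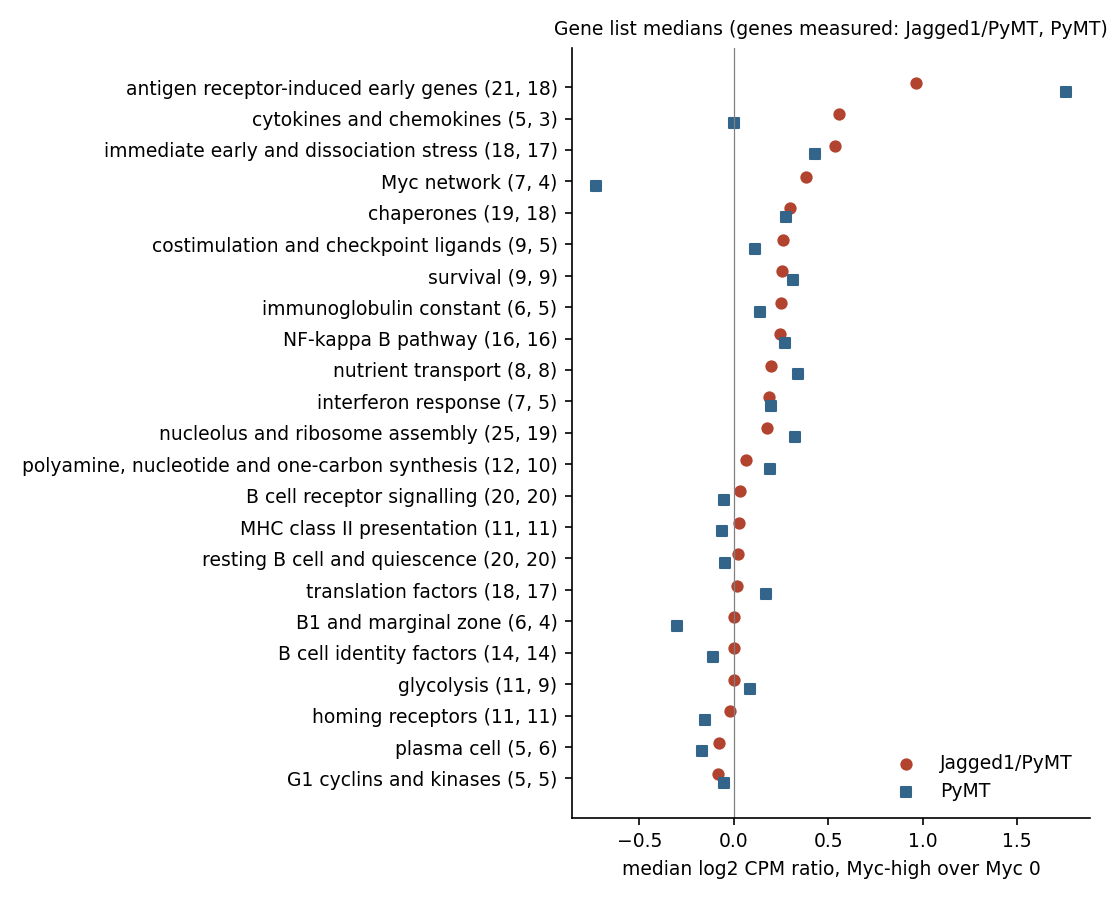
Median log2 ratio of CPM, Myc-high over depth-matched Myc 0, for gene lists with at least 3 genes measured in each library (numbers of genes in brackets, Jagged1/PyMT first); circles are Jagged1/PyMT and squares PyMT. Antigen receptor-induced early genes lie farthest from 0 in both libraries, at 0.97 and 1.76; the Myc network list, with few genes, lies on opposite sides of 0.

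For the higher genes ranked first, the contrast was smaller in Jagged1/PyMT than in PyMT, and most stood higher in Jagged1/PyMT Myc 0 barcodes. Of the 15 higher genes ranked first by their interval bounds (with Nr4a2, Rasgef1b and Fos, and without Atf3, Jun and Maff), all 15 had the larger log2 ratio in PyMT, and for 10 the counting interval of the difference lay below 0. In Myc 0 barcodes 14 of the 15 stood higher in Jagged1/PyMT than in PyMT, 10 with an interval above 0. Free RNA of these genes went both ways between Jagged1/PyMT and PyMT. Fos had 1196 and 590 CPM there and Bcl2a1b 494 and 307 CPM, while Nr4a1 had 483 and 523 CPM and Nr4a2 47.7 and 113 CPM. The part of free RNA in the Myc 0 levels was not tested. In Myc-high barcodes 5 of the 15 stood higher in Jagged1/PyMT, 4 of them with an interval above 0, and 8 had an interval below 0. The 15 were picked by their Myc-high over Myc 0 ratios, and these counts were not set against all genes measured. The counts in Myc 0 and in Myc-high barcodes are parts of the same difference and no separate result. Over all genes measured, the median genotype log2 ratio was -0.03 in Myc-high and -0.04 in Myc 0 barcodes. The genotype log2 ratio in Myc-high minus that in Myc 0 barcodes was -0.73 (-0.89 to -0.56) for Nr4a1, -0.94 (-1.30 to -0.58) for Bcl2a1b and -0.77 (-1.17 to -0.37) for Nfkbid. Cd69 stood at 956 CPM in Jagged1/PyMT and 831 CPM in PyMT Myc-high barcodes, which is a log2 ratio of 0.20 (0.06 to 0.34). Among Myc 0 barcodes it stood at 541 and 284 CPM, which is a log2 ratio of 0.93 (0.71 to 1.16).

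Between genotypes, few genes separated Myc-high barcodes by over 2-fold. Of 4112 genes measured, 43 were over 2-fold higher in Jagged1/PyMT, 1.05% of them, and 33 over 2-fold lower, 0.803%. Myc 0 barcodes of the same libraries had 42 of 4128 higher (1.02%) and 49 lower (1.19%), so the numbers in Myc-high barcodes were near those of B barcodes without Myc. Medians over all genes were -0.03 and -0.04.

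Cd274, Zfp36l2, Sesn1 and Jun were the named higher genes found in many members, and Cd274 is taken up last. Zfp36l2, an RNA-binding protein that speeds the decay of growth gene transcripts, had 709 CPM in Jagged1/PyMT and 214 CPM in PyMT Myc-high barcodes, which is a log2 ratio of 1.73 (1.48 to 1.98). In Myc 0 barcodes it had 572 and 341 CPM, which is a log2 ratio of 0.75 (0.54 to 0.96). In T barcodes the ratio was 0.19 (0.15 to 0.23). Sesn1, a stress-induced inhibitor of growth signalling, had 212 and 78.4 CPM, which is a log2 ratio of 1.44 (1.03 to 1.86), and 0.61 (0.30 to 0.92) in Myc 0 barcodes. Jun had a log2 ratio of 1.40 (1.11 to 1.69) in Myc-high and 1.30 (0.88 to 1.74) in Myc 0 barcodes, and 0.95 in T barcodes, so it differed across the libraries. Free RNA of Jun differed too, at 877 CPM in Jagged1/PyMT and 362 CPM in PyMT, above the Myc-high levels of 434 and 165 CPM.

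Among lower genes, Usp2, a ubiquitin protease, had 27.2 CPM in Jagged1/PyMT and 105 CPM in PyMT Myc-high barcodes, which is a log2 ratio of -1.94 (-2.57 to -1.35). It was lower by 1.27 in Myc 0 barcodes as well, and its log2 ratio was -1.59 in T barcodes. Pabpc1, the poly(A)-binding protein gene, had log2 ratios of -0.96 in Myc-high, -0.88 in Myc 0 and -0.88 in T barcodes. Gadd45b, a stress gene that NF-kappa B induces, had 76.0 and 208 CPM, which is a log2 ratio of -1.45 (-1.83 to -1.08), against -0.84 (-1.40 to -0.29) in Myc 0 and 0.09 (-0.10 to 0.27) in T barcodes. The glutamine carrier gene Slc38a2 had 90.4 and 222 CPM in members and 74.9 and 149.8 CPM in Myc 0 barcodes. The lamin gene Lmna had log2 ratios of -1.75 in Myc-high and -1.34 in Myc 0 barcodes. Rasd1, Tagln2, Crem, Rilpl2 and Ahcy completed the lower genes, with log2 ratios of -1.25, -1.06, -1.02, -0.96 and -1.29.

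A further 6 of the 10 named higher genes, most of them typical of myeloid cells, sat in few members. S100a8, a calprotectin subunit of neutrophils, had 72 UMIs in 6 Jagged1/PyMT members and 1 UMI in 1 PyMT member. S100a9 had 143 UMIs in 6 and 0 in PyMT, Ifitm1 63 in 6 and 0, Wfdc17 81 in 11 and 2 in 1, Il1b 124 in 29 and 16 in 5, and Cxcl2 91 in 18 and 6 in 5. The neutrophil marker list, S100a8 and S100a9 included, summed to 190 CPM in Jagged1/PyMT and 2.61 CPM in PyMT members, and to 627 and 74.9 CPM in their Myc 0 partners. In barcodes under 100 UMIs, S100a8 stood at 499 and 104 CPM in the 2 libraries. Without barcodes that held 5 or more UMIs of another lineage or Jchain, the count of genes over 2-fold higher was 38, against 43 with them. The log2 ratio of Il1b was then 0.24. That of S100a9, itself a marker used to leave barcodes out, was -0.30, with 0 UMIs in PyMT set to 3 counts.

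**Figure D5:**
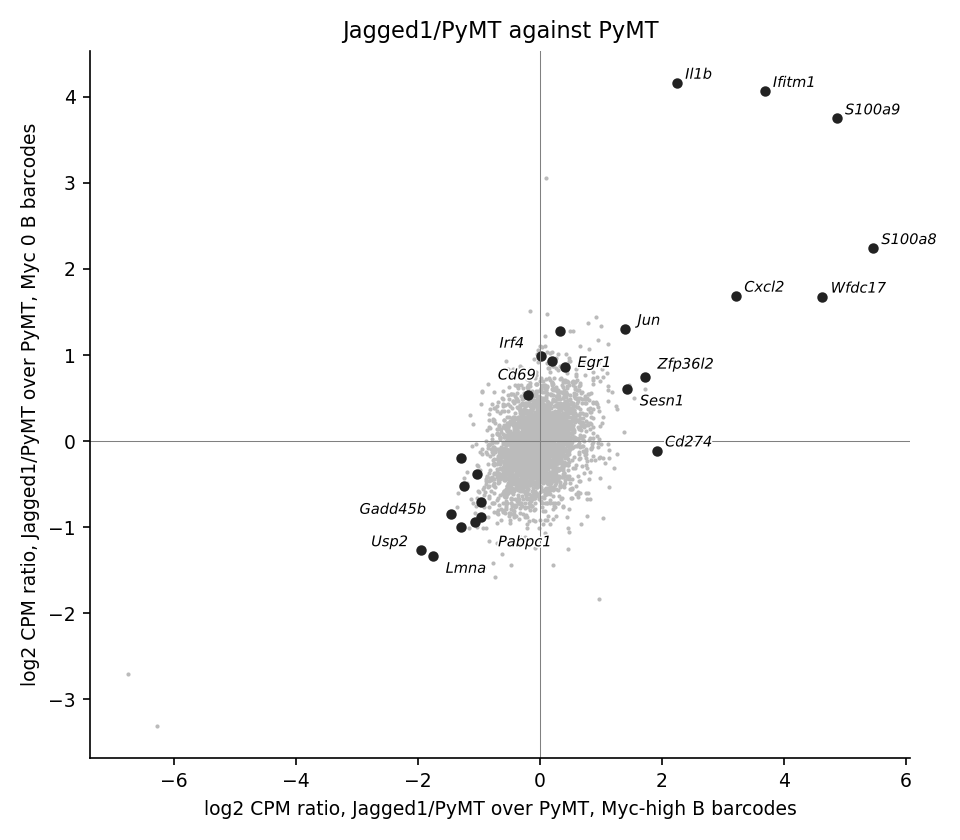
Log2 ratio of CPM in Jagged1/PyMT over PyMT, in Myc-high (x axis) and depth-matched Myc 0 B barcodes (y axis), for genes with 50 or more UMIs in each comparison (grey), with named genes in black, some without a label. Zfp36l2 and Jun differ in both, Cd274 lies at 1.92 and -0.11, and the myeloid genes at the upper right sit in few members; a level of 0 UMIs was set to 3 counts.

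Cd274 was higher in Myc-high than in Myc 0 barcodes in Jagged1/PyMT, and in PyMT the interval of its ratio held 0. It had 88.8 CPM in Myc-high and 28.5 CPM in Myc 0 barcodes of Jagged1/PyMT, which is a log2 ratio of 1.64 (1.08 to 2.23). In PyMT it had 22.5 CPM in Myc-high and 30.8 CPM in Myc 0 barcodes, which is a log2 ratio of -0.45 (-1.44 to 0.52). Between genotypes its log2 ratio was 1.92 (1.19 to 2.72) in Myc-high and -0.11 (-0.91 to 0.72) in Myc 0 barcodes, a difference of 2.03 (0.98 to 3.07). These values rest on 111 UMIs in Jagged1/PyMT and 18 in PyMT members. Free RNA of Cd274 stood at 21.9 CPM in Jagged1/PyMT and 15.9 CPM in PyMT. These levels lie inside the intervals of Jagged1/PyMT Myc 0 (19.8 to 39.6 CPM) and PyMT Myc-high barcodes (13.9 to 37.2 CPM). At least 2 macrophage and monocyte marker UMIs were in 20.2% of Jagged1/PyMT and 9.78% of PyMT members, and in 17.4% and 14.8% of Myc 0 partners. The part of free RNA in the Cd274 levels was not tested.

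By barcodes, Cd274 was found in 20.8% of Jagged1/PyMT members (16.7 to 25.4) and 9.24% of PyMT members (5.47 to 14.4). Myc 0 partners had it in 8.55% and 9.84%, and T barcodes in 5.23% and 4.64%. After thinning to 2000 UMIs the shares were 13.7% of 343 Jagged1/PyMT members and 2.81% of 178 PyMT members, 3.50% and 3.39% in Myc 0 barcodes, and 2.44% and 1.68% in T barcodes. Jagged1/PyMT Myc-high barcodes were thus the group that stood above its Myc 0 and T barcodes. By Myc class the level in Jagged1/PyMT was 34.7, 59.2, 47.1, 79.5, 79.5 and 133 CPM, and in PyMT 21.9, 32.5, 21.6, 24.9, 15.7 and 33.7 CPM. Among members of Jagged1/PyMT, Cd274 was found in 27.0% of those with Egr1 (20.6 to 34.3) and 14.7% of those without (9.83 to 20.8). In PyMT these shares were 12.0% (6.57 to 19.7) and 5.26% (1.45 to 12.9).

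For gene lists compared as Jagged1/PyMT over PyMT, antigen receptor-induced early genes had a median log2 ratio of -0.19 in Myc-high and 0.47 in Myc 0 barcodes. Immediate early and dissociation stress genes had 0.47 and 0.52, with 7 of 17 genes over 1.5-fold higher in each set, where 5.74% and 4.77% of all genes were. In nucleolus and ribosome assembly, 6 of 25 genes were over 1.5-fold lower in Myc-high and 3 of 21 in Myc 0 barcodes, where 6.88% and 7.17% of all genes were. Its medians were -0.28 and -0.35, those of nutrient transport -0.39 and -0.58, and those of polyamine, nucleotide and one-carbon synthesis -0.44 and -0.03.

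One list passed 1.5-fold by its median between genotypes, the network of Myc's partners and rivals. Its median was 0.82 over 6 genes in Myc-high barcodes, against -0.11 in Myc 0 barcodes. Max, the partner that Myc needs to bind DNA, had 61.6 CPM in Jagged1/PyMT and 36.6 CPM in PyMT members, which is a log2 ratio of 0.75 (0.11 to 1.43). In Myc 0 barcodes the log2 ratio of Max was 0.24 (-0.42 to 0.92), and the interval of the difference, 0.52 (-0.37 to 1.41), held 0. Of the proteins that compete with Myc for Max, Mxd1 had a log2 ratio of 1.22, Mxd4 of 0.88 and Mga of 0.77 in members. Intervals and Myc 0 values of these competitors are not reported here. In the Notch pathway, 3 of 16 genes were measured between genotypes. Notch2, the main Notch receptor of B cells, had 67.2 CPM in Jagged1/PyMT and 62.7 CPM in PyMT members, which is a log2 ratio of 0.10 (-0.43 to 0.64). The Notch target Dtx1 had 0.58 and the modifier gene Mfng 0.51, with intervals not reported here. The Notch list had a median of 0.51 over 3 genes in Myc-high and -0.34 over 2 genes in Myc 0 barcodes, too few genes to read as a group. Jag1 itself had 4 UMIs in Jagged1/PyMT and 1 in PyMT members, too few for a comparison.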

How the data were processed

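Immune cells from 4 samples, 2 per genotype, were profiled with 10x Genomics 3′ chemistry. The deposited values are raw UMI counts for each gene and barcode. The submitters' processing notes name Cell Ranger 3.0.2. Each matrix lists 737280 barcodes, most of them empty, a number that matches an earlier kit than the one the labels name. The genome build is not given in the sources used here.

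B barcodes, Myc-high members and Myc 0 barcodes were taken by the rule stated in the report, and T barcodes by 3 or more Cd3d, Cd3e and Cd3g UMIs with at most 1 B and 2 C1q UMIs. Levels are UMIs summed over barcodes, divided by the group's total and given as CPM, with exact Poisson intervals. For CPM ratios the interval is the exact conditional binomial one, and shares have exact Clopper-Pearson intervals, all at 95%. Intervals of a difference of log2 ratios and of share ratios are normal approximations. With 0 UMIs in a group the ratio was taken against 3 counts, and none is given where both groups had 3 or fewer. A gene was measured with 50 or more UMIs in the groups compared, and over 2-fold or 1.5-fold refers to the ratio itself. Free RNA was read from barcodes under 100 UMIs.

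The members, the 27 gene lists and 11 marker lists were chosen with earlier results of these data known. Named genes were the 15 higher and 10 lower between Myc-high and Myc 0 by the lesser of the libraries' interval bounds nearest 0, the 10 higher and 10 lower between genotypes by that bound (UMIs in 5 or more barcodes of the higher group), list members and a fixed set; genes of the rule, immune receptor variable genes and mitochondrial genes were left out. The gene named for topping or contrasting a list, and the co-detection sets, were chosen after their values were seen. Promoter motifs were chosen the same way. Doublets were scored with Scrublet in scanpy 1.11.5 at 0.8% per 1000 barcodes; its own threshold marked 0% and 0.0403%, below 0.5%, so it was taken to have failed and the top 496 and 443 scores were left out as an alternative. No doublets were removed in the main values. Ratio, matching and thinning steps were tested on simulated data. Python 3.11.15, numpy 2.4.6, scipy 1.17.1 and pandas 2.3.3 were used. Alternatives are in the closing section. Values of some genes of the fixed set and lists are not reported here.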

Additional observations from a re-analysis of the deposited data

Results flagged for a closer look

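For 6 named genes the log2 ratio of Myc-high over Myc 0 had opposite signs in the libraries, with a counting interval of the difference that excluded 0. The difference is the genotype ratio in all members minus that in Myc 0 barcodes, so it can depart a little from the ratios over pairs. With 1 library per genotype, none of these differences was tested over mice. Cd274 differed by 2.03 (0.98 to 3.07), at 1.64 in Jagged1/PyMT and -0.45 in PyMT, and the PyMT interval of -1.44 to 0.52 includes 0. Zfp36l2 differed by 0.98 (0.66 to 1.30), at 0.31 (0.17 to 0.46) in Jagged1/PyMT and -0.65 (-0.94 to -0.36) in PyMT. Crem, a cyclic AMP-responsive repressor, differed by -0.64 (-1.04 to -0.25), at -0.50 in Jagged1/PyMT and 0.14 in PyMT, where the interval of -0.14 to 0.43 includes 0. Ahcy, an enzyme of the methionine cycle, differed by -1.09 (-1.91 to -0.27), at -0.68 in Jagged1/PyMT and 0.43 in PyMT, where the interval of -0.17 to 1.04 includes 0. Wfdc17 differed by 2.96 (0.74 to 5.17), at 0.34 (-0.16 to 0.84) in Jagged1/PyMT, which includes 0, and -2.60 in PyMT. Il1b differed by -1.91 (-3.18 to -0.65), at -0.95 in Jagged1/PyMT and 0.99 (-0.32 to 2.42) in PyMT, which includes 0, and both of these genes sit in few barcodes. Among the 6, both libraries' intervals were clear of 0 for Zfp36l2 only.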

How the results depend on the processing

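No paired analysis was possible because the barcodes of a genotype are not tied to its samples, and leaving out a replicate could not be run for the same reason. The share ratio of 2.06 between Jagged1/PyMT and PyMT ran from 1.82 to 2.34 under 10 other settings and was 2.52 after thinning to 2000 UMIs, in another random draw than the shares in the report (93 of 1317 in PyMT). Genes over 2-fold apart between Myc-high and Myc 0 in both libraries numbered 15 higher and 6 lower. With every gene from 1 UMI kept they were 151 (51 higher, 100 lower), and 2 were lower with genes from 100 UMIs, with a Myc minimum of 2, or without barcodes with 2 or more UMIs of another lineage. Between genotypes 43 higher and 33 lower became 1259 (682 and 577) from 1 UMI and 29 (14 and 15) from 100 UMIs, and 71 were higher with a Myc minimum of 2. Lists over 1.5-fold by their median between genotypes numbered 2 in place of 1 with a Myc minimum of 2 or 5, thinning to 2000 UMIs or the mean of per-barcode CPM. The sign of Il1b between genotypes changed (-0.011 without barcodes with 2 or more UMIs of another lineage). Without 5 or more such UMIs or Jchain, Cxcl2 (0.19) and Jchain (0.96) changed sign between Myc-high and Myc 0 in Jagged1/PyMT. S100a9 between genotypes was then at -0.30, with 0 UMIs in PyMT members set to 3 counts, so its sign rests on that floor. This setting leaves out barcodes by their own Jchain and S100a9 UMIs, among others. Jchain had 4 UMIs in 1 Jagged1/PyMT Myc-high barcode, under the cut of 5. With all Myc 0 barcodes unmatched, Mki67 was at 0.61 in PyMT, with 0 UMIs in Myc-high barcodes, set to 3 counts. The settings on Fos and Jun, on 5 or more UMIs of another lineage and on the top barcode were chosen after seeing the data. The intervals cover counting error only, depth limits genes under 50 UMIs, and the spread between mice is unknown.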
